A study of Mus musculus with 4 samples.

Results

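The genes described here are 10 genes of the amino acid stress response that runs through the transcription factor ATF4: Asns, Atf4, Atf5, Chac1, Trib3, Ddit3, Psat1, Phgdh, Sesn2, and Shmt2. They are 10 of the 32285 genes in the count matrices of 4 single-cell RNA-sequencing (scRNA-seq) libraries from the spleen and bone marrow (BM) of mice with and without a tumor. The genes were chosen by pathway and by their levels in erythroid barcodes of the tumor-bearing and the control spleen, which had already been compared. The choice read the levels by cell class in all 4 libraries, so every value below is a description that no test accompanies.

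When a cell runs short of an amino acid, misfolds proteins in the endoplasmic reticulum, or lacks heme, a kinase phosphorylates the translation factor eIF2α, most translation slows, and the messenger RNA of ATF4 is translated more. ATF4 then raises the transcription of genes that make, import, and charge amino acids, and of genes that feed back on the response. The kinase of red cell precursors that senses heme is HRI, encoded by Eif2ak1, and serine, glycine, and asparagine synthesis are among the classic outputs. Since ATF4 is controlled largely at translation, the level of Atf4 messenger RNA says little about the amount of the protein.

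1 library was sequenced for each of 4 groups of C57BL/6J mice aged 8 to 16 weeks: spleen of control (CS) and tumor-bearing (TS) mice, and BM of control (CBM) and tumor-bearing (TBM) mice. The tumor-bearing mice carried PyMT-B6, a cell line derived from the mammary tumors of MMTV-PyMT mice, in which the mammary tumor virus promoter drives the polyoma middle T oncogene, and the controls received buffer. Both tissues of all 4 groups were digested with enzymes, depleted of lineage-positive cells, sorted by flow cytometry into CD45+ c-Kit+ progenitors with and without Sca-1 and into CD45- populations gated on CD31 and CD51, and mixed at equal ratios, so that shares of cell types reflect the gates. The number of mice behind a library is not given in the sources used here. With 1 library per group there is no spread between samples and no test: every interval below is a 95% interval of counting error only (exact Poisson for a level, exact conditional for a ratio, exact binomial for a share), and the barcodes of a library share their source and are not replicates.

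A unique molecular identifier (UMI) marks each counted RNA molecule. In the order CBM, TBM, CS, TS, the libraries held 101811035, 135207987, 145301019, and 176094297 UMIs, and 3497, 4340, 3236, and 5188 barcodes had at least 1000 genes and at most 10% mitochondrial UMIs. Of these, 217, 203, 1373, and 2924 were erythroid, meaning that at least 3 of the 4 markers Klf1, Car1, Ermap, and Rhag were detected. Levels are given as counts per 1000000 UMIs of the class (CPM) and are compared only for 1 gene across samples. The erythroid barcodes had a median of 15608, 14303, 48010, and 34333 UMIs, and any pair of libraries shared 2 to 9 barcode sequences, 0 of them erythroid. Between 8 and 49 erythroid barcodes per library also met the marker rule of another cell type.

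The label of the class was checked with genes that the rule did not use. Among the genes most enriched in erythroid barcodes were Rhd, which encodes a red cell blood group protein, Add2, which encodes a membrane skeleton protein, and Slc38a5, a glutamine transporter. The class was then divided by the share of UMIs from hemoglobin genes, a measure of maturation. In CBM, TBM, CS, and TS, 125, 78, 1310, and 2873 barcodes had under 2% hemoglobin (hemoglobin-low), 22, 46, 21, and 30 had 2% to 20%, and 70, 79, 42, and 21 had over 20% (hemoglobin-rich). Alas2, which encodes the enzyme that opens heme synthesis in red cell precursors, stood at 0.375 to 4.67 CPM in hemoglobin-low and at 804 to 950 CPM in hemoglobin-rich barcodes across the 4 libraries. Kit, the receptor of early progenitors, went the other way, with 162 to 201 CPM in the first and 0 to 5.68 CPM in the second. The spleen class was thus almost wholly of the early kind, and the hemoglobin-rich barcodes of CS and TS are few.

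The C/EBP-ATF response element is the promoter sequence through which ATF4 acts on its targets. Its core, TGATGNAA on either strand, was found in the 250 bases before the start of 1134 of 32851 RefSeq promoters (3.45%, build GRCm38.p6) and, among the 12 promoter entries of the 10 genes, in those of Asns and Chac1, 2 of 10 genes. The windows are shown because they belong to Asns and to a gene that was close to undetected. Over all erythroid barcodes, Asns had the largest ratios between tumor-bearing and control libraries among the genes with at least 10 CPM. The match is in capitals and the strand is that of the gene.
Asns, chr6:7693214-7693243, minus strand: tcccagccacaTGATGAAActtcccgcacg
Chac1, chr2:119351038-119351067, plus strand: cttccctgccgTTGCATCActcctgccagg
The Asns match lies 15 bases before the RefSeq start, within an exon and untranslated region of a longer annotated transcript, and the Chac1 match, which reads TTGCATCA on the strand of the gene because the motif lies on the opposite one, lies 185 bases before the start and in no exon of the gene. A match of 8 letters is a description of the sequence, and its absence from the other windows shows nothing about ATF4 at those genes.

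Asns (ENSMUSG00000029752, GRCm38, chr6:7675169-7693254, minus strand) encodes asparagine synthetase, which makes asparagine from aspartate and glutamine. Over all erythroid barcodes of BM it stood at 76.9 CPM in CBM (354 UMIs) and 138 CPM in TBM (579 UMIs), and over those of spleen at 72.9 CPM in CS (4965 UMIs) and 133 CPM in TS (13499 UMIs). Both tumor-bearing libraries lay above both control libraries, with no overlap of the counting intervals, and the 2 tissues lay close to each other within each condition. The log2 ratio was 0.87 (95% interval 0.82 to 0.91, 1.82-fold) for TS over CS and 0.84 (0.65 to 1.04, 1.79-fold) for TBM over CBM. Each ratio rests on 1 library per group. For scale, 0.347% of the 7484 genes with at least 10 CPM in CS or TS had a ratio at least that of Asns in spleen, and 0.898% of 7685 genes did in BM.

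Of the 6 genes with at least 10 CPM, 0 were past 2-fold in either tissue. In spleen, a comparison that the choice of the genes used, 0.241% of all tested genes were at least 2-fold higher and 1.26% at least 2-fold lower in TS. In BM, 0.599% were higher and 3.67% lower in TBM. Asns was the single one of the 6 past 1.5-fold in each tissue, against 1.04% of all genes in spleen and 2.45% in BM. The counting interval lay above 0 for 34.3% and below 0 for 38.3% of all tested genes in spleen. In BM these shares were 13.5% and 20.3%. An interval apart from 0 was thus common, above all in spleen. The median log2 ratio over the 9 genes with a ratio was 0.22 in spleen and 0.30 in BM, and over the 6 with at least 10 CPM it was 0.28 and 0.084. The medians over all genes with at least 10 CPM were -0.01 and -0.05. The BM median over 9 genes rests in part on Trib3 and Atf5, which are under 10 CPM, and it changed sign under several other ways of choosing or weighting the barcodes, among them an equal weight for each barcode (-0.021).

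Of the transcription factors of the group, Atf4 moved little, and Ddit3 was somewhat higher in both tumor-bearing libraries. Atf4 (ENSMUSG00000042406, chr15:80255184-80257541, plus strand), the head of the response, stood at 168.5, 153.4, 129.4, and 127.7 CPM in erythroid barcodes of CBM, TBM, CS, and TS. Its log2 ratio was -0.02 (-0.06 to 0.02) in spleen and -0.14 (-0.29 to 0.02) in BM. The difference of its RNA between these single libraries was small in spleen and not detectable at this depth in BM. Counting intervals do not bound a difference between mice. Ddit3 (ENSMUSG00000025408, chr10:127290774-127296288, plus strand), which encodes the stress factor CHOP, stood at 30.0, 40.0, 11.9, and 15.1 CPM. It was 1.27-fold higher in TS than in CS (log2 ratio 0.35, 0.22 to 0.47) and had a ratio of 0.42 (0.08 to 0.75) in BM, and both spleen libraries lay below both BM libraries. Within hemoglobin-low barcodes the BM libraries were close to each other, and both spleen libraries still lay below them, as given below. The BM classes hold more hemoglobin-rich barcodes, in which Ddit3 was higher, and the part of this in the levels was not tested. The Ddit3 locus overlaps Mars on the other strand and holds a further annotated Ddit3 gene (ENSMUSG00000116429). The Ddit3 levels given are the sum over both Ddit3 entries. Atf5 (ENSMUSG00000038539, chr7:44812256-44816658, minus strand, overlapping Nup62 and Il4i1 on the other strand), an ATF4 relative, was low throughout, at 4.13, 5.24, 2.95, and 2.96 CPM, with a ratio of 0.01 (-0.26 to 0.27) in spleen. Its ratio in BM was 0.34, where the counting intervals of the levels overlap.

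Phgdh, Psat1, and Shmt2 make serine and turn it into glycine and one-carbon units: PHGDH opens serine synthesis from 3-phosphoglycerate, PSAT1 is its next step, and SHMT2 is the mitochondrial enzyme that splits serine. Shmt2 (ENSMUSG00000025403, chr10:127517123-127522444, minus strand) stood at 45.0, 55.5, 61.0, and 77.7 CPM in erythroid barcodes of CBM, TBM, CS, and TS. Of these 3 genes it had the largest ratio in each tissue, 0.35 (0.30 to 0.40, 1.28-fold) in spleen and 0.30 (0.03 to 0.58) in BM, where the sign turned under 3 of 20 alternatives, among them an equal weight for each barcode (-0.021). Psat1 (ENSMUSG00000024640, chr19:15904678-15947337, minus strand) stood at 35.8, 31.0, 46.6, and 54.1 CPM, with ratios of 0.22 (0.15 to 0.28) in spleen and -0.21 (-0.55 to 0.13) in BM. Phgdh (ENSMUSG00000053398, chr3:98313170-98339990, minus strand) was ordered by tissue, with 83.6 and 74.3 CPM in the BM libraries CBM and TBM and 180.0 and 189.2 CPM in the spleen libraries CS and TS. The ratio of CS over CBM was 1.11 (0.96 to 1.26, 2.15-fold), while the tumor ratios were 0.07 (0.04 to 0.11) in spleen and -0.17 (-0.39 to 0.05) in BM. The larger share of hemoglobin-rich barcodes in the BM classes stood beside that tissue difference, and within hemoglobin-low barcodes Phgdh was 107.9 and 112.9 CPM in BM and 183.6 and 190.3 CPM in spleen.

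Of the feedback and stress output genes, Chac1 and Trib3 were at or near the limit of detection, while Sesn2 was low but measured. Chac1 (ENSMUSG00000027313, chr2:119351229-119354381, plus strand), which encodes a glutathione-degrading enzyme and is an early mark of amino acid deprivation, had 0, 0, 1, and 1 UMIs in the erythroid barcodes of CBM, TBM, CS, and TS, where 3 counts would be 0.652, 0.715, 0.0440, and 0.0295 CPM. Trib3 (ENSMUSG00000032715, chr2:152337422-152344032, minus strand), a pseudokinase that restrains ATF4 and CHOP, had 2, 8, 7, and 16 UMIs. Its ratios had wide intervals, -0.75 to 2.14 in spleen and -0.19 to 5.41 in BM. Sesn2 (ENSMUSG00000028893, chr4:132492032-132510501, minus strand), an inhibitor of the growth kinase mTORC1, stood at 8.04, 6.19, 6.77, and 5.84 CPM and was lower in TS than in CS by a log2 ratio of -0.21 (-0.39 to -0.03). Over all erythroid barcodes and among the genes with at least 10 CPM, the ratios nearest to those of Asns were the 0.35 of Shmt2 and of Ddit3 in spleen and the 0.42 of Ddit3 in BM.

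**Figure D1:**
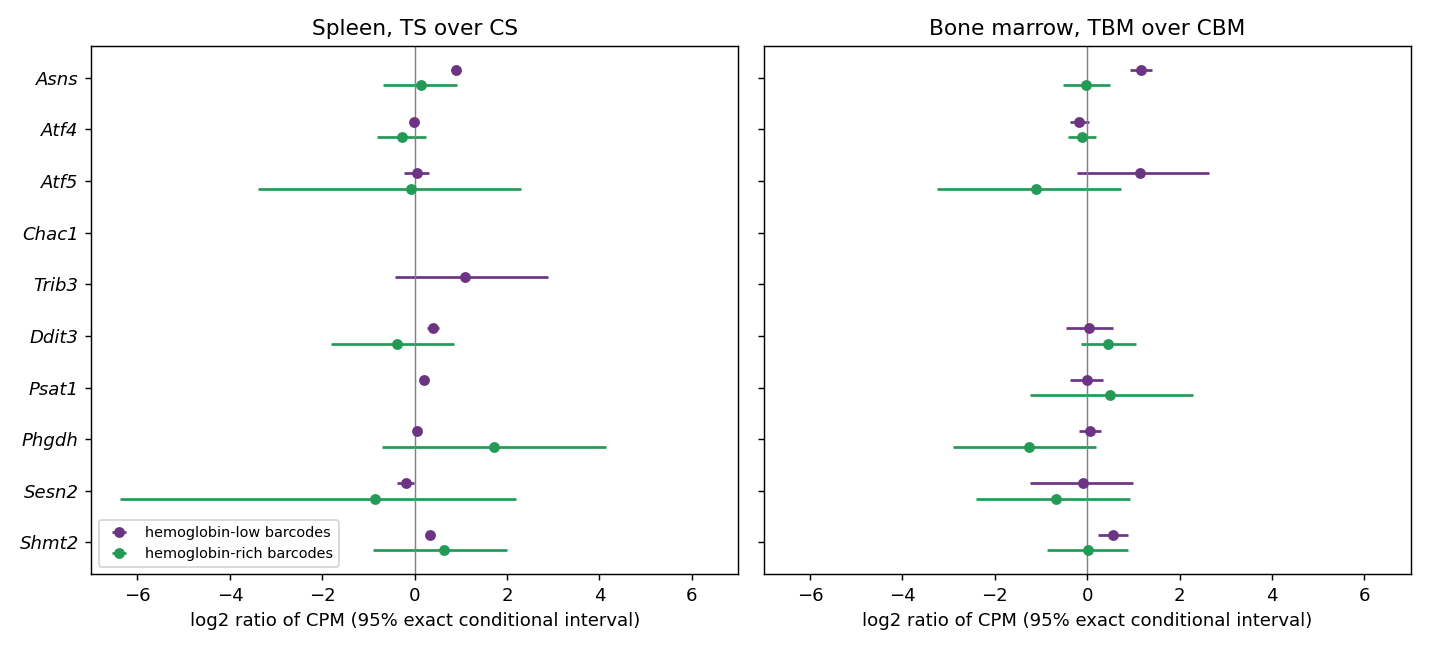
Log2 ratio of each gene (rows) between tumor-bearing and control libraries, TS over CS on the left and TBM over CBM on the right, for hemoglobin-low (purple) and hemoglobin-rich (green) barcodes, with bars for 95% counting intervals and a blank where there were too few UMIs for a ratio. Asns in hemoglobin-low barcodes lies at 0.89 in spleen and 1.17 in BM, while its hemoglobin-rich ratios, 0.14 and -0.01, have intervals that include 0.

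The Asns difference was seen in hemoglobin-low barcodes and was not detectable in hemoglobin-rich ones. In hemoglobin-low barcodes CBM had 73.5 CPM (interval 64.4 to 83.5) and TBM had 165.5 CPM (149.5 to 182.8), while CS had 72.0 CPM (70.0 to 74.0) and TS had 132.9 CPM (130.7 to 135.2). The log2 ratio was 0.89 (0.84 to 0.93, 1.85-fold) in spleen, where 0.347% of all genes had a ratio at least as high, and 1.17 (0.93 to 1.41, 2.25-fold) in BM, where 0.521% did. In hemoglobin-rich barcodes the level was similar in all 4 libraries, 74.9, 74.1, 80.9, and 89.3 CPM in CBM, TBM, CS, and TS, from 70, 66, 57, and 19 UMIs. The ratios there were 0.14 (-0.69 to 0.91) in spleen and -0.01 (-0.52 to 0.49) in BM. The BM interval for hemoglobin-rich barcodes lies wholly below that for hemoglobin-low barcodes, whereas in spleen the 2 intervals overlap. In the few barcodes with 2% to 20% hemoglobin, Asns was 105.8, 129.2, 147.9, and 126.0 CPM, lower in TS than in CS.

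The other genes with at least 10 CPM had smaller ratios than Asns in hemoglobin-low barcodes. Trib3, far below that level, had a larger log2 ratio in spleen, 1.08, which rests on 16 UMIs in TS and 5 in CS. Shmt2 stood at 48.1, 71.3, 61.6, and 78.0 CPM in CBM, TBM, CS, and TS, with ratios of 0.34 (0.28 to 0.39) in spleen and 0.57 (0.25 to 0.89) in BM. Atf4 stood at 160.3, 142.6, 128.1, and 127.5 CPM and was not higher in either tumor-bearing library. Ddit3 stood at 24.2, 25.0, 11.3, and 14.9 CPM, with a ratio of 0.40 (0.28 to 0.53) in spleen and 0.05 in BM. Asns was the single one of 6 genes with at least 10 CPM past 2-fold in BM, where 0.844% of 8055 genes were at least 2-fold higher and 3.67% at least 2-fold lower. In spleen 0 of the 6 were, against 0.24% and 1.17% of all genes. Of all tested genes in spleen, 33.6% had a counting interval above 0 and 38.5% had 1 below 0. In BM 13.3% and 14.7% did.

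**Figure D2:**
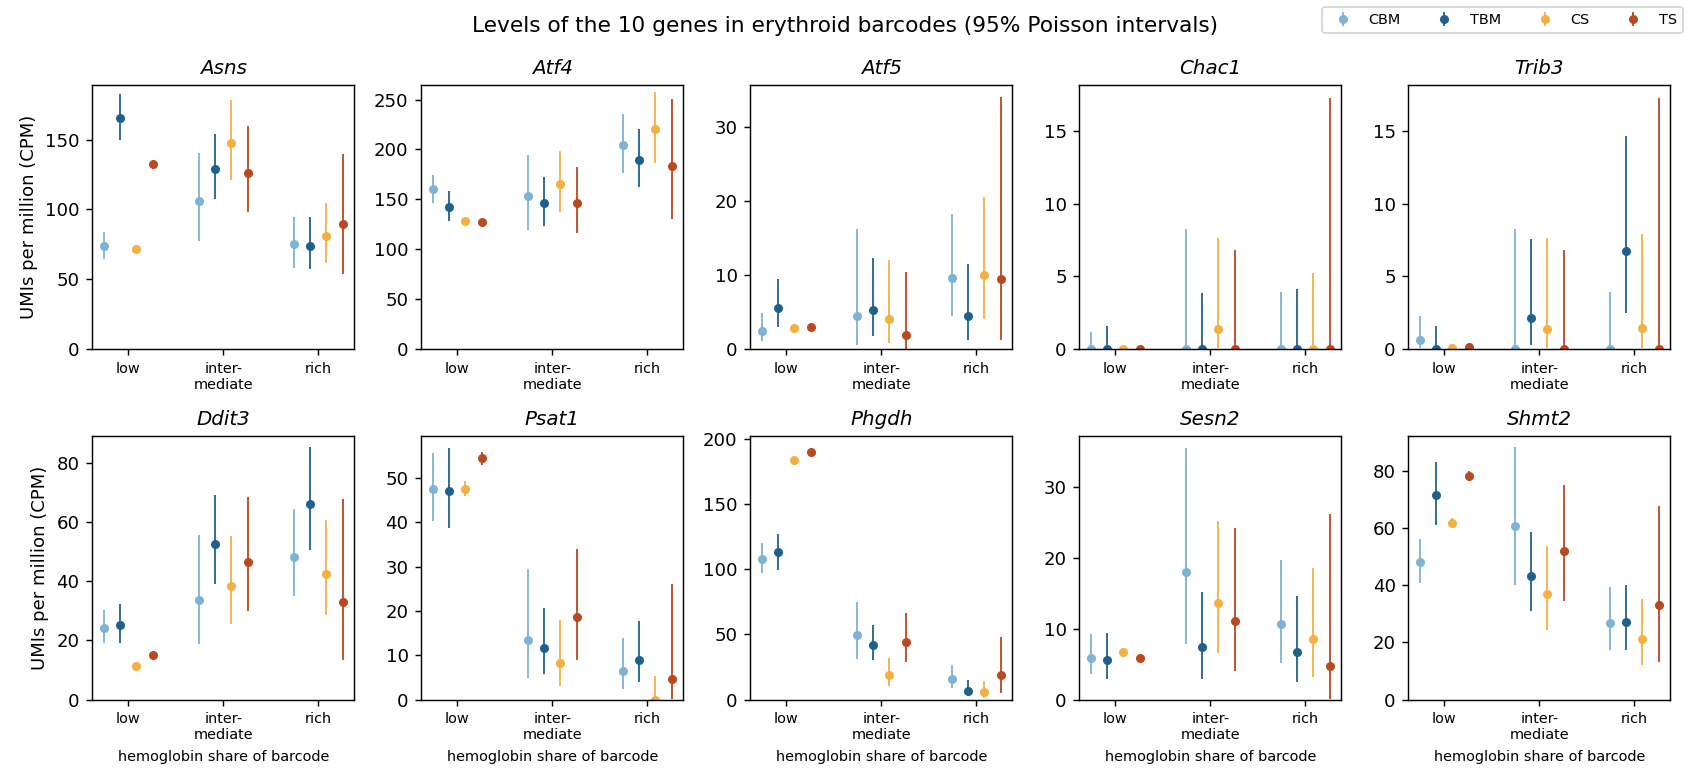
CPM (vertical axis) of the 10 genes, 1 panel each, in erythroid barcodes with under 2%, 2% to 20%, and over 20% hemoglobin UMIs (horizontal axis) in the 4 libraries (colors), with 95% Poisson intervals. Phgdh and Psat1 drop from the hemoglobin-low to the hemoglobin-rich group in every library, Ddit3 and Atf4 go up, and Asns in the hemoglobin-low group is at 72.0 and 73.5 CPM in the control libraries and at 132.9 and 165.5 CPM in the tumor-bearing ones, with the 4 libraries together in the hemoglobin-rich group.

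Along maturation, Atf4 and Ddit3 were higher and Phgdh and Psat1 lower in all 4 libraries. Shmt2 had ratios nearer to 0, and Asns was the 1 of these 6 genes whose sign differed between libraries when levels were scaled by UMIs other than hemoglobin. Hemoglobin was 38.7% to 40.8% of the UMIs of hemoglobin-rich barcodes, so that scale was used, and on it the median over all genes of the log2 ratio of hemoglobin-rich over hemoglobin-low was -0.54, -0.48, -0.43, and -0.17 in CBM, TBM, CS, and TS. Of all tested genes, 16.9%, 17.7%, 20.9%, and 24.7% were at least 2-fold higher and 38.3%, 36.2%, 35.3%, and 27.7% at least 2-fold lower, so a 2-fold difference is common between these stages. Ddit3 was higher in hemoglobin-rich barcodes of each library, by 3.33-, 4.45-, 6.38-, and 3.60-fold. Atf4 was higher as well, with log2 ratios of 1.09, 1.16, 1.54, and 1.23, and each of the 4 intervals lay above 0 for both genes. Scaled by all UMIs the Atf4 ratios were 0.35, 0.41, 0.78, and 0.52.

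Phgdh and Psat1, the serine synthesis genes, were lower in the hemoglobin-rich barcodes. Phgdh was lower in hemoglobin-rich barcodes by 4.02-, 9.96-, 19.1-, and 6.21-fold in CBM, TBM, CS, and TS, with each interval below 0. Those barcodes held 15, 6, 4, and 4 Phgdh UMIs, or 26.9, 11.3, 9.59, and 30.7 CPM without hemoglobin UMIs. Such levels are near or under what 10% of free RNA (barcodes with at most 100 UMIs) would supply, as given below. The sizes of the Phgdh folds are therefore uncertain. Psat1 had log2 ratios of -2.14 (-3.61 to -0.99) in CBM, -1.64 (-2.89 to -0.61) in TBM, and -2.83 (-8.13 to -0.35) in TS. These ratios rest on 6, 8, and 1 Psat1 UMIs in the hemoglobin-rich barcodes of CBM, TBM, and TS. With 0 UMIs in the hemoglobin-rich barcodes of CS, Psat1 was at least 6.61-fold lower there (against 3 counts in that class). Shmt2 had smaller ratios, -0.10, -0.65, -0.78, and -0.54, with intervals that include 0 in CBM and TS, and was lower relative to all genes in 3 of 4 libraries. Asns followed the library: its ratio was 0.77 (0.36 to 1.16) in CBM and 0.92 (0.52 to 1.30) in CS, but -0.41 (-0.81 to -0.03) in TBM and 0.13 (-0.60 to 0.78) in TS. Relative to the median of all genes the Asns ratio was higher in 4 of 4 libraries, and scaled by all UMIs it was higher in 2 and lower in 2. Atf5 and Sesn2 were higher relative to all genes in 4 of 4 libraries but in 3 of 4 when scaled by all UMIs. In hemoglobin-rich barcodes of CBM, TBM, CS, and TS, Atf5 had 9, 4, 7, and 2 UMIs and Sesn2 10, 6, 6, and 1. Scaled without hemoglobin, the interval lay above 0 in 2 libraries for Atf5 and in 1 for Sesn2.

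Some upstream and parallel genes of the response were also compared between the 2 stages. Ppp1r15a, which encodes the GADD34 subunit that returns eIF2α to its unphosphorylated state, had log2 ratios of 2.31, 2.54, 2.41, and 3.18 for hemoglobin-rich over hemoglobin-low in CBM, TBM, CS, and TS. Mthfd2, a mitochondrial one-carbon enzyme and known ATF4 target, had 2.21, 1.84, 1.92, and 1.36, against the direction of Phgdh and Psat1. Slc3a2 and Slc7a5, the 2 chains of a large neutral amino acid transporter, had 1.29 to 1.67 and 0.78 to 1.69. A further pair of genes was singled out after their values were seen: Eif2ak1, the heme-sensing kinase itself, was at 369, 308, 441, and 422 CPM in hemoglobin-rich and 46.0, 53.1, 38.5, and 39.8 CPM in hemoglobin-low barcodes (without hemoglobin UMIs), and Slc6a9, the glycine transporter that red cell precursors use for heme synthesis, had ratios of 5.89 to 8.63. Ppp1r15a, Mthfd2, Slc3a2, Slc7a5, Eif2ak1, and Slc6a9 were each higher in 4 of 4 libraries under either scaling. Eif2ak4, another eIF2α kinase gene, was at 12.7, 17.8, 17.4, and 16.4 CPM in hemoglobin-low barcodes, scaled by all UMIs. Over all erythroid barcodes, which include the hemoglobin-rich ones, it was at 9.56, 11.7, 17.1, and 16.3 CPM, lower in BM and nearly equal in spleen. That scale includes hemoglobin UMIs, and a stage ratio of Eif2ak4 is not given here. The genes named here do not stand for every part of the response.

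By list, the amino acid transporters had median stage ratios of 1.51, 1.60, 1.31, and 1.53, with 4 or 5 of 6 tested genes at least 2-fold higher and 0 at least 2-fold lower in each library. The other serine, glycine, and one-carbon enzymes had medians of -1.23, -1.71, -1.69, and -1.07, with Mthfd2 the 1 gene past 2-fold upward in each library. Mitochondrial chaperones and proteases had medians of -2.83, -2.67, -3.50, and -3.17, with 4 or 5 of 5 at least 2-fold lower. Cytosolic tRNA synthetases, which load amino acids onto transfer RNA, lay near the all-gene median, at -0.50, -0.26, -0.39, and -0.36. Beside these list counts stand the shares of all genes given above, up to 24.7% at least 2-fold higher and up to 38.3% at least 2-fold lower.

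Other genes of the hemoglobin-low barcodes moved with the tumor-bearing libraries. Gata2, a transcription factor of early progenitors that is switched off as red cell development proceeds, stood at 217, 93.8, 58.9, and 23.9 CPM in CBM, TBM, CS, and TS. Rhag, which encodes a red cell membrane protein and is 1 of the 4 markers of the rule, stood at 91.2, 198.7, 48.6, and 105.6 CPM. Tfrc, the transferrin receptor that brings iron into red cell precursors, was 231.8 CPM in TS against 187.4 in CS and 369.3 CPM in TBM against 215.5 in CBM. Each of these 3 genes thus differed in the same direction in both tissues, while Kit (201, 167, 162, and 171 CPM) and the proliferation gene Mki67 (519, 629, 560, and 503 CPM) did not. The median depth also differed, at 18047, 24084.5, 49476, and 34611 UMIs. In BM the median share of mitochondrial UMIs was 3.09% in CBM and 3.59% in TBM. The 4 markers of granulocyte-monocyte progenitors (GMPs), summed, were 519.7, 732.2, 101.8, and 238.3 CPM, all 4 of them detected, and this too was higher in each tumor-bearing library. The part of these in the Asns difference was not tested, and Asns was compared only among barcodes alike in depth or in the detection of Gata2 and Rhag.

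Among hemoglobin-low barcodes of like depth, the Asns difference was larger than over all of them in each depth bin of spleen, and in BM larger below 40000 UMIs and smaller above. Between 20000 and 40000 UMIs it was 116.5 CPM in TS (1595 barcodes) and 20.4 CPM in CS (373 barcodes), a log2 ratio of 2.51 (2.32 to 2.71, 5.71-fold), and 191.4 CPM in TBM against 40.1 CPM in CBM, 2.25 (1.65 to 2.88, 4.77-fold). Between 40000 and 80000 UMIs the ratio was 1.15 (1.08 to 1.21) in spleen and 0.62 (0.33 to 0.92) in BM. Between 10000 and 20000 UMIs it was 2.12 (1.34 to 3.02) and 1.60 (0.15 to 3.08). In every library Asns was higher in deeper than in shallower barcodes over these bins. Barcodes of like depth need not be alike in stage. Detection of Gata2 and Rhag was not matched within the bins, and its part in these ratios was not tested.

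Among barcodes of the later kind by Gata2 and Rhag, the difference was smaller than over all hemoglobin-low barcodes but kept its direction. With a Rhag UMI and without a Gata2 UMI, which is that later kind, Asns stood at 149.8 CPM in TS (1458 barcodes) and 115.4 CPM in CS (264 barcodes), a log2 ratio of 0.38 (0.30 to 0.45, 1.30-fold). In BM the same barcodes gave 219.1 CPM in TBM (29 barcodes) and 146.0 CPM in CBM (15 barcodes), a ratio of 0.59 (0.26 to 0.92, 1.5-fold). With a Gata2 UMI and without a Rhag UMI, the earlier kind, the level was 46.1 CPM in TS and 25.0 CPM in CS, and this ratio of 0.88 (0.59 to 1.17) was close to that over all hemoglobin-low barcodes. In BM the earlier kind had 11.6 CPM in CBM (61 barcodes) and 17.0 CPM in TBM, where 5 barcodes are too few to compare. Asns was lower in the earlier than in the later kind of CBM, CS, and TS. The detection of 1 UMI depends on depth, so these strata are not free of it. In CBM, TBM, CS, and TS, 87.2%, 61.5%, 74.1%, and 44.4% of hemoglobin-low barcodes had a Gata2 UMI. A Rhag UMI was in 50.4%, 92.3%, 64.8%, and 90.4%. Many barcodes thus held both, and barcodes with both or neither are in neither kind and are not given here. Shmt2 in the later kind had ratios of 0.28 (0.19 to 0.38) in spleen and 0.74 (0.16 to 1.35) in BM, and Atf4 had 0.01 in spleen.

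**Figure D3:**
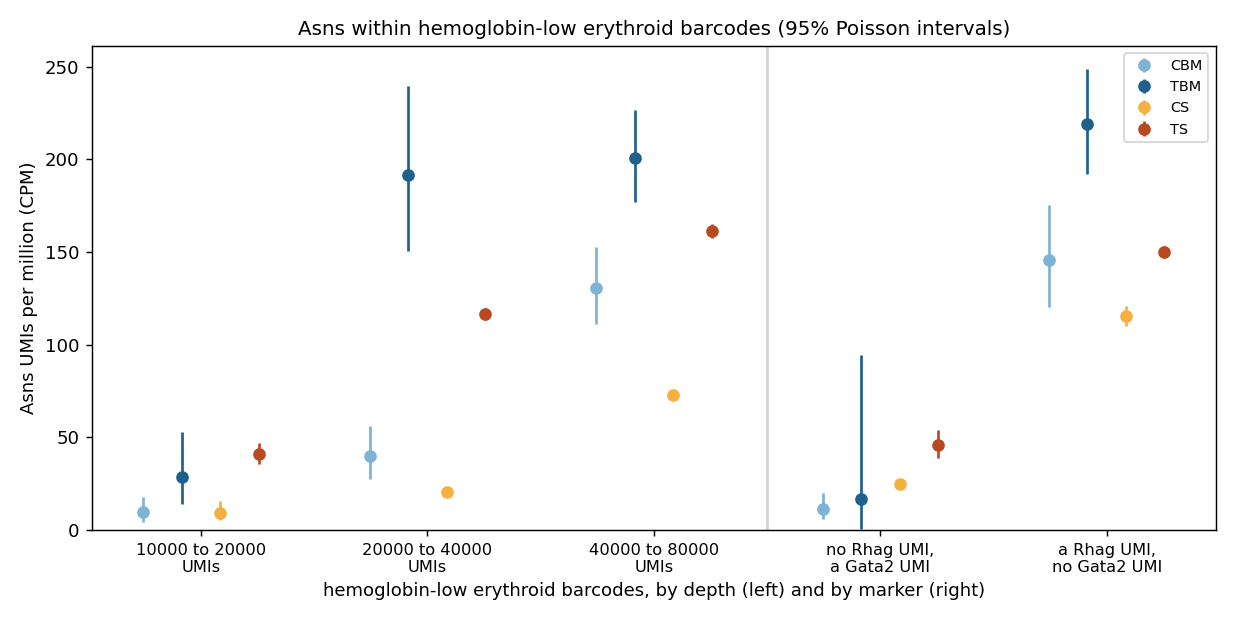
Asns CPM (vertical axis, with 95% Poisson intervals) in hemoglobin-low barcodes of the 4 libraries (colors), by UMIs per barcode on the left and by detection of Rhag and Gata2 on the right. The tumor-bearing library lies above its control in each depth bin, and with Rhag and without Gata2 the levels come closer, 149.8 against 115.4 CPM in spleen and 219.1 against 146.0 CPM in BM.

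The higher summed level was spread over many barcodes. After each barcode was thinned to 5000 UMIs, the share of hemoglobin-low barcodes with at least 1 Asns UMI was 13.8% (8.26 to 21.2) in CBM, 33.8% (23.4 to 45.5) in TBM, 21.2% (19.0 to 23.6) in CS, and 38.5% (36.7 to 40.3) in TS. From 1 to 13 barcodes per library were too shallow and were left out, and the shares at full depth were 29.6%, 60.3%, 62.2%, and 79.6%. The order of TBM over CBM and TS over CS held with and without thinning, whereas CS exceeded TBM only at full depth. Barcodes with 3 or more Asns UMIs after thinning made up 1.63%, 6.49%, 1.38%, and 4.16%. In hemoglobin-rich barcodes the thinned shares were 27.1%, 24.7%, 24.3%, and 33.3%, with overlapping intervals. Stem and progenitor (HSPC)-like barcodes, which serve as a low reference, had shares of 1.96%, 6.65%, 3.92%, and 5.29%.

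**Figure D4:**
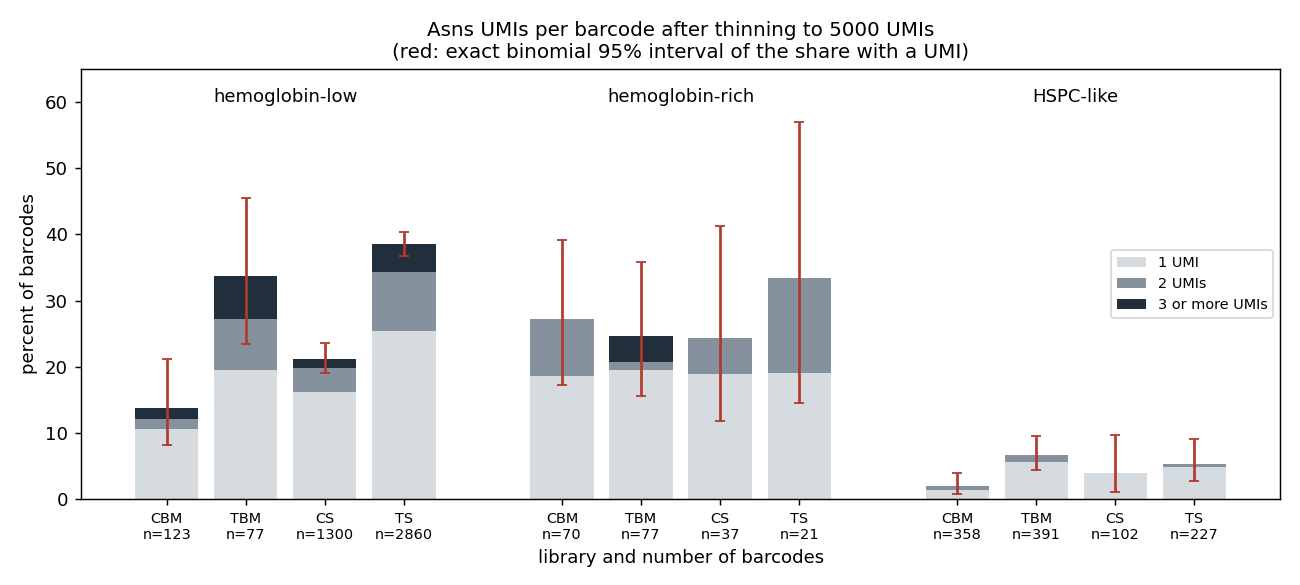
Percent of barcodes (vertical axis) with 1, 2, or at least 3 Asns UMIs after thinning to 5000 UMIs, stacked, for hemoglobin-low, hemoglobin-rich, and HSPC-like barcodes of the 4 libraries, with the 95% binomial interval of the total in red. In hemoglobin-low barcodes the totals are 13.8% and 33.8% in CBM and TBM and 21.2% and 38.5% in CS and TS.

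Among the classes with at least 50 barcodes, which were named X-like from at least 3 of 4 markers, Asns was highest in the erythroid barcodes of each library. HSPC-like barcodes had 6.48, 13.6, 11.2, and 10.3 CPM in CBM, TBM, CS, and TS. GMP-like barcodes had 12.7, 24.2, 8.51, and 22.5 CPM. Mast or basophil-like barcodes had 0.98, 5.63, 5.28, and 7.65 CPM, and B lineage-like barcodes 3.72 CPM in CBM and 3.82 in TBM. Barcodes with at most 100 UMIs, which hold free RNA, had 12.0, 23.5, 40.5, and 84.3 CPM, so that 10% of free RNA in each erythroid barcode would supply 1.20, 2.35, 4.05, and 8.43 of its Asns CPM. The neighbours HSPC-like CS and TS do not differ beyond their intervals, nor do B lineage-like CBM and TBM.

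**Figure D5:**
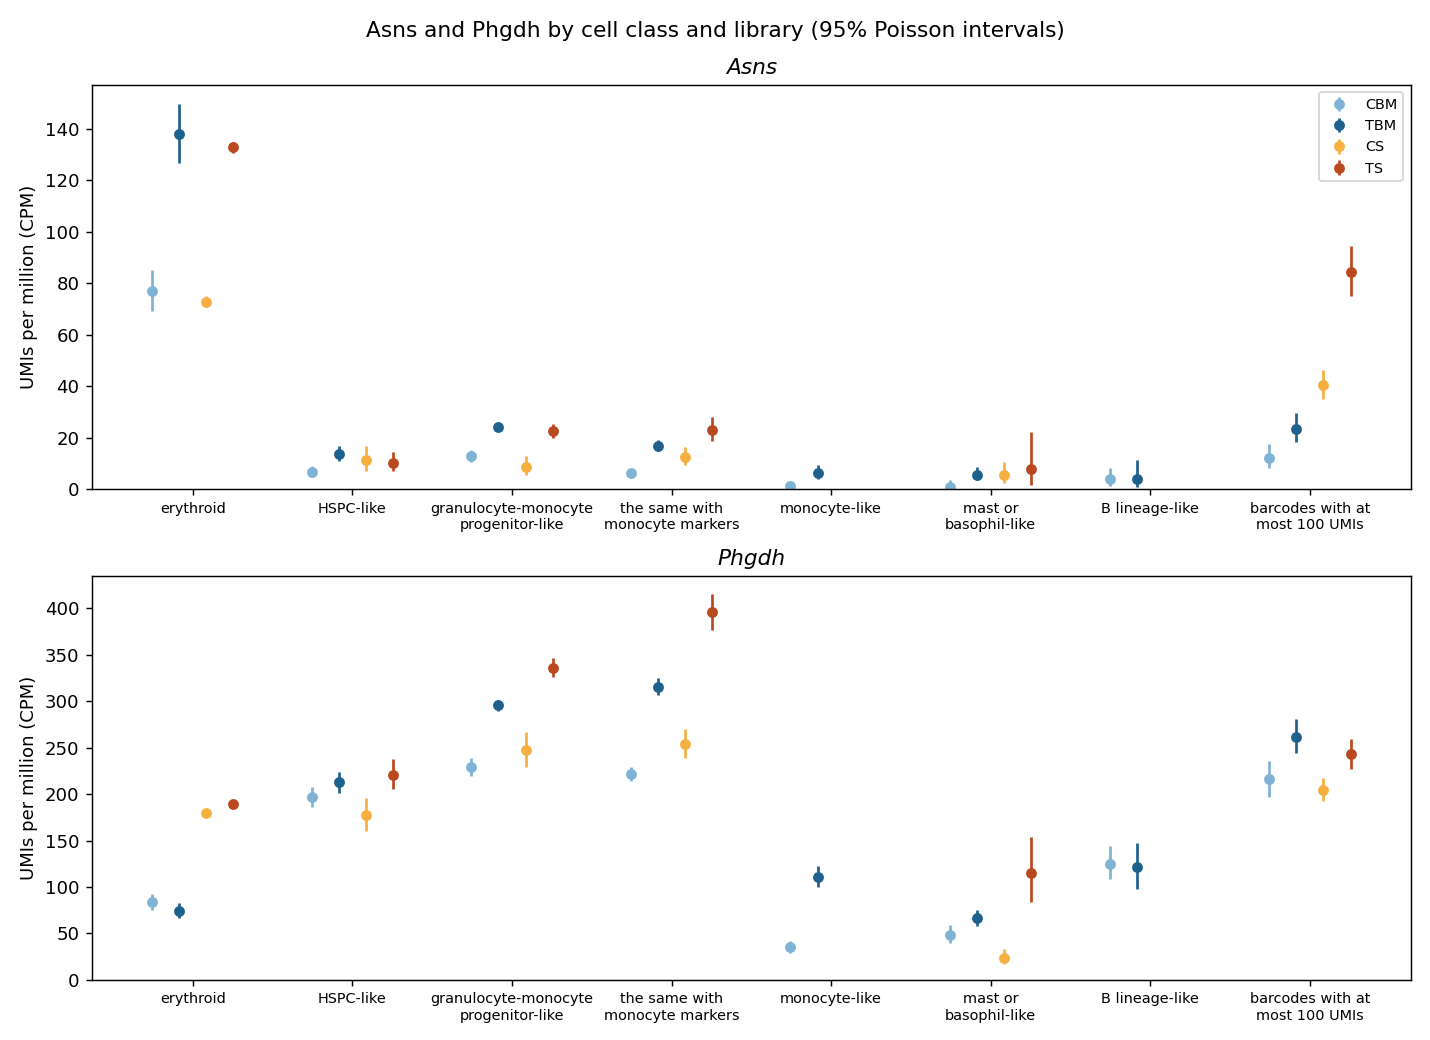
CPM of Asns and Phgdh (1 panel each) by marker-defined class and library, with barcodes of at most 100 UMIs as free RNA and 95% Poisson intervals. Asns is at 72.9 to 138 CPM in erythroid barcodes and below 25 CPM in the GMP-like and HSPC-like classes, whereas Phgdh is as high or higher in GMP-like barcodes, at 228.9 to 336.0 CPM.

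In GMP-like barcodes Asns, Psat1, Phgdh, and Shmt2 were higher in both tumor-bearing libraries than in their controls. These barcodes, 394, 1210, 81, and 403 in the 4 libraries, had at least 3 of Mpo, Elane, Prtn3, and Ctsg, the granule genes of developing neutrophils. Asns had ratios of 1.40 (0.79 to 2.09, 2.65-fold) in spleen and 0.93 (0.64 to 1.22, 1.90-fold) in BM. Psat1 stood at 67.9, 89.4, 63.6, and 113.3 CPM in CBM, TBM, CS, and TS, with ratios of 0.83 (0.60 to 1.07, 1.78-fold) and 0.40 (0.27 to 0.53). Shmt2 stood at 51.4, 70.1, 54.0, and 83.7 CPM, with 0.63 (0.38 to 0.89) and 0.45 (0.30 to 0.60). All 3 serine genes had ratios above 0 in both tissues here.

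Phgdh in GMP-like barcodes stood at 228.9, 295.5, 247.2, and 336.0 CPM, with ratios of 0.44 (0.33 to 0.56) in spleen and 0.37 (0.30 to 0.44) in BM. Atf4 itself stood at 115.2, 137.9, 122.5, and 168.9 CPM, with 0.46 (0.30 to 0.64) and 0.26 (0.16 to 0.36). Ddit3 did not follow, at 8.18, 4.37, 8.51, and 5.84 CPM and ratios of -0.54 (-1.24 to 0.20) and -0.90 (-1.32 to -0.47). For scale, 24.8% of 7911 genes in spleen and 28.0% of 7699 genes in BM had an interval above 0, and 7.82% and 2.62% were at least 1.5-fold higher. Asns, Psat1, and Shmt2 passed 1.5-fold in spleen, and Asns and Atf5 did in BM, with Atf5 at 6.08 CPM in CBM and 10.8 CPM in TBM. The 8.51 CPM of Asns in CS and the 22.5 CPM in TS stand beside the 4.05 and 8.43 CPM that 10% of free RNA would supply.

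Barcodes with the markers of both GMPs and monocytes gave values of the same kind. Phgdh stood at 222, 315, 254, and 396 CPM in CBM, TBM, CS, and TS, Shmt2 at 62.9, 96.0, 57.9, and 108 CPM, and Asns at 6.26, 16.9, 12.6, and 22.9 CPM. All 3 were higher in the tumor-bearing library of each tissue with intervals above 0, as were 25.0% of all genes in spleen and 33.6% in BM. In HSPC-like barcodes Atf4 stood at 143.6, 176.5, 134.4, and 162.8 CPM, with ratios of 0.28 (0.07 to 0.49) and 0.30 (0.17 to 0.43). Asns differed there in BM (1.07, 0.51 to 1.65) and not detectably in spleen (-0.12, -0.91 to 0.70), where 10% of free RNA would supply 4.05 of the 11.2 CPM in CS and 8.43 of the 10.3 CPM in TS. Among monocyte-like barcodes, which only the BM libraries held in number, Phgdh was 35.1 CPM in CBM and 110.8 CPM in TBM (3.15-fold), of which 10% of free RNA would supply 21.6 and 26.2 CPM. Mast or basophil-like barcodes had 48.6, 66.5, 23.8, and 114.7 CPM of Phgdh in CBM, TBM, CS, and TS, where 10% of free RNA would supply 21.6, 26.2, 20.5, and 24.3 CPM, so the CS value is close to that background.

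The wider pathway was read in hemoglobin-low barcodes of TS and CS. Over 11 lists of related genes, 0 genes were past 2-fold in either direction, where 0.24% of all genes were higher and 1.17% lower, and the list medians ran from -0.41 to 0.20 where the all-gene median was -0.02. Medians above it were those of mitochondrial chaperones and proteases (0.20, 5 of 5 tested), other serine, glycine, and one-carbon enzymes (0.19, 5 of 6), cytosolic tRNA synthetases (0.11, 12 of 12), amino acid transporters (0.07, 5 of 9), and other amino acid enzymes (0.01, 2 of 7). In BM these 5 medians were 0.28, 0.26, 0.19, 0.26, and 0.05, where the all-gene median was -0.01. Mthfd2 had ratios of 0.33 (0.25 to 0.41) and 0.63 (0.19 to 1.07), and Lars, the leucyl-tRNA synthetase, 0.37 and 0.42.

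Lists with medians below the all-gene value were the other ATF4 targets and partners (-0.41, 5 of 10 tested), immediate-early genes (-0.37, 7 of 9), ER chaperones (-0.20, 9 of 9), the erythroid stage genes (-0.10, 7 of 9), eIF2α kinases and phosphatase (-0.06, 6 of 7), and other sestrins and mTORC1 regulators (-0.04, 2 of 4). In BM these medians were 0.11, -0.37, -0.03, 0.02, 0.13, and -0.46, over 4, 7, 9, 8, 6, and 3 tested genes. Where the genes that reached 10 CPM differed between the tissues, as in the first list, the erythroid stage genes, and the last list, the medians of spleen and BM are not over like genes. Ppp1r15a stood at 87.4 CPM in TS against 153.5 in CS (-0.81, -0.85 to -0.77) and 102.3 CPM in TBM against 128.4 in CBM (-0.33, -0.56 to -0.10). Atf3, a stress factor that partners with CHOP, was 10.7 CPM in TS and 19.3 in CS (-0.85, -0.96 to -0.73), with an interval of -1.57 to 1.68 in BM. Cebpb, a partner of ATF4, had -0.44 in spleen and -0.63 in BM, and Ddit4, an mTORC1 inhibitor, -0.41 in spleen. Against the median of that list, Eif4ebp1, a translation repressor and ATF4 target, was 215 CPM in TS against 170.3 in CS (0.34, 0.30 to 0.37) and 183.8 CPM in TBM against 141.4 in CBM (0.38, 0.19 to 0.57). In the list of ER chaperones, Dnajb9 had ratios of -0.63 in spleen and -0.56 in BM. Other genes of that list had ratios of opposite sign in spleen and BM. Hspa5 had -0.24 in spleen and 0.16 (0.03 to 0.29) in BM. Sdf2l1 had -0.40 and 0.28 (-0.10 to 0.66), and Edem1 had 0.37 and -0.29 (-0.98 to 0.38). The BM intervals of Sdf2l1 and Edem1 include 0, so their direction in BM is undetermined. The immediate-early genes Fos, Junb, and Dusp1, which tissue digestion is known to raise, had ratios of -0.49, -0.57, and -0.57 in spleen and -0.37, -0.49, and -0.53 in BM, and their part in the lower Ppp1r15a and Atf3 was not tested.

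Across 21 pairs of class and library with at least 100 barcodes, the genes outside these lists whose log2 level ran most like the summed level of the 10 genes were Prpf31, which encodes a splicing factor (Pearson r = 0.953), Uchl3, a ubiquitin hydrolase (0.946), Mbd3, a methyl-binding domain protein (0.940), Prmt1, an arginine methyltransferase (0.934), and Mif, a cytokine (0.933), of 7571 genes considered. The pairs share 4 libraries and differ in depth, so these are descriptions.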

How the data were processed

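The deposited values were UMI counts per gene and barcode, whole numbers that the authors made with Cell Ranger 4.0 on mm10 for all barcodes of 1 library per group. They precede the authors' selection of cells, removal of ambient RNA, and filter of 350 genes, none of which was applied here. The deposited counts were read with Python 3.11.15, numpy 2.4.6, scipy 1.17.1, pandas 2.3.3, and pyarrow 21.0.0, and figures were drawn with matplotlib 3.10.9. Barcodes were kept with at least 1000 genes and at most 10% mt- UMIs. No doublets were removed. A barcode was assigned to erythroid with a UMI of at least 3 of 4 markers. The other 12 classes needed at least 3 of 4 markers, each with more UMIs than 10% of free RNA (barcodes with at most 100 UMIs) would give at a Poisson probability of 0.001. That scoring was chosen after seeing the data. Backgrounds and lists cover genes with at least 10 CPM in either library or, where higher, the level of 3 UMIs. Where a gene had 0 UMIs in 1 of the libraries compared, its ratio was computed against 3 counts and is written as a bound, and genes at or under 3 counts in both libraries have no ratio. Thinning used a fixed seed. The interval and ratio code was tested on simulated data.

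The 10 genes and the lists were chosen with earlier results of these data known, and no pattern is offered as independent support. Named pathway genes were the 10, at most 4 per list by the absolute ratio of TS over CS among genes with at least 10 CPM, and the 5 genes most correlated with the summed group. Eif2ak1 and Slc6a9 fall outside that rule and were named after their values were seen. Genes that describe cell class or stage are named besides. Gene positions are from GENCODE vM21. The alternatives covered barcode filters, marker rules, scaling, free RNA, depth, doublets, and hemoglobin share.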

Additional observations from a re-analysis of the deposited data

Results flagged for a closer look

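Barcodes with at most 100 UMIs belong to no cell class and served above only as the estimate of free RNA. They carried 4 of the genes at a higher level in the tumor-bearing than in the control library of both tissues, with 95% Poisson intervals that do not overlap. This was met by 4 of the 6 genes with at least 10 CPM and by 3.94% of 7279 genes in both tissues, and by 22.5% of genes in spleen and 7.82% in BM taken alone. These barcodes held 2326696, 3026908, 5065985, and 3606873 UMIs in CBM, TBM, CS, and TS. Asns was at 84.3 CPM in TS against 40.5 in CS and at 23.5 CPM in TBM against 12.0 in CBM. Psat1 was at 61.8 CPM in TS against 30.6 in CS and at 76.3 CPM in TBM against 55.9 in CBM. Phgdh was at 243 CPM in TS against 205 in CS and at 262 CPM in TBM against 216 in CBM. Shmt2 was at 77.1 CPM in TS against 54.7 in CS and at 66.7 CPM in TBM against 42.5 in CBM. These differences rest on 1 library per group and were not tested.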

How the results depend on the processing

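No paired analysis was possible because there is 1 library per group and the labels give no replicate numbers, and no library could be left out. Asns kept its direction under 19 of 20 alternatives in each tissue, from -0.23 to 2.04 in spleen and -0.015 to 1.17 in BM. The exceptions were barcodes with 2% to 20% hemoglobin in spleen (-0.23) and over 20% in BM (-0.015). With all 4 erythroid markers required its ratio was 0.66 in spleen and 0.49 in BM. The group median for TS over CS (0.22) became 0.15 with 10% free RNA removed, 0.12 with equal weight per barcode, 0.085 at 10000 to 40000 UMIs, and -0.081 over 20% hemoglobin. The count of genes past 2-fold in spleen (0) became 2 at 1.5-fold and at 2% to 20% hemoglobin, and 1 with free RNA removed, with equal weight, at 10000 to 40000 UMIs, under 2% hemoglobin (Trib3), and over 20%. The median for TBM over CBM (0.30) became 0.026 with at least 2000 genes, -0.044 with all 4 markers, -0.021 with equal weight, -0.12 at 10000 to 40000 UMIs, -0.15 at 2% to 20% hemoglobin, and -0.015 over 20%. In hemoglobin-low barcodes without Gata2 it was -0.030, and -0.052 with Rhag and without Gata2. Shmt2 in BM became -0.021 with equal weight, -0.10 at 10000 to 40000 UMIs, and -0.50 at 2% to 20% hemoglobin. Ddit3 became -0.37 over 20% hemoglobin in spleen and -0.13 at 40000 to 80000 UMIs in BM. The cause of these changes was not tested. The alternatives on Gata2, Rhag, and 40000 to 80000 UMIs were chosen after seeing the data. The BM classes hold few UMIs (4603989 and 4198202), which limits genes under 10 CPM.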
